A study of Caenorhabditis elegans with 2 samples.

Results

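The autosomal intronic peaks of COG-1 are the regions bound by the tagged protein whose summit lay inside an intron of a protein-coding gene on chromosomes I to V. A summit is the base of highest signal in a peak. Peaks were taken from the authors' list thresholded with the irreproducible discovery rate (IDR), a measure of how alike regions rank in both replicates. They counted as intronic when the summit lay in no window from 1000 bp upstream to 500 bp downstream of a protein-coding gene start, in no annotated exon of any gene, and inside the body of a protein-coding gene. Beyond the cut on strength that the IDR list already holds, this rule used positions and annotation alone. It found 225 of the 1841 IDR peaks. They made up 15.9% of the 1414 autosomal peaks (exact 95% interval 14.0 to 17.9).

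The data came from ChIP-seq, the sequencing of DNA recovered by chromatin immunoprecipitation, of whole hermaphrodite Caenorhabditis elegans at the midembryonic stage, 3 h after synchronization by egg bleaching. The strain was OP541, genotype unc-119(tm4063) III; wgIs541, a line that stably expresses COG-1 with a C-terminal GFP-FLAG tag. Sonicated chromatin was precipitated with an antibody against GFP, and 2 biological replicates formed the 1 group. No input, untagged or other control library was analysed here, so there is no comparison between conditions. Because whole embryos were used, binding in few cells and weak binding in many cells cannot be told apart.

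The homeodomain protein COG-1 belongs to the NK6 family of transcription factors. It is known for making the left and right ASE taste neurons differ and for its role in vulval and uterine development. Introns of C. elegans genes do more than separate exons. Long introns can hold enhancers and internal promoters, from which shorter transcripts of the same gene start, and many small RNA genes, above all those of snoRNAs, lie within introns of protein-coding genes. Genes for tRNAs are transcribed by RNA polymerase III from promoter elements inside the gene, the A and B boxes.

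The bases within 50 bp of the summits of the 8 strongest members on chromosomes II to V are printed because they show how unlike each other the strongest intronic peaks are. Each reads 5′ to 3′ on the strand of the host gene, in the ce11 build, whose sequence is that of WBcel235. Capitals mark GAGAGA, the core of the tRNA B box (GGTTCGA) and the word CGTCTC, each as such or as its reverse complement, and neighbouring matches can overlap.
Y43F8C.7 (chrV:19643150-19643250, minus strand): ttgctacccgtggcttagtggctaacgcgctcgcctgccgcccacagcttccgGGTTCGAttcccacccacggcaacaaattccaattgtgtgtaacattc
pqn-41 (chrIII:1925316-1925416, plus strand): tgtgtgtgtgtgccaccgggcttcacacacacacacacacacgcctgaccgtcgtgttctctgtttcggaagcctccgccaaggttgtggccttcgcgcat
zfp-1 (chrIII:8802029-8802129, plus strand): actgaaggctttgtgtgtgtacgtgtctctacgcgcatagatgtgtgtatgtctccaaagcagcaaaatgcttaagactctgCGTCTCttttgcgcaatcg
pxn-1 (chrV:8500521-8500621, plus strand): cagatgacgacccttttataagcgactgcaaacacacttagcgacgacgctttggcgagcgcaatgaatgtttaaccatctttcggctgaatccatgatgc
M01F1.8 (chrIII:3500015-3500115, minus strand): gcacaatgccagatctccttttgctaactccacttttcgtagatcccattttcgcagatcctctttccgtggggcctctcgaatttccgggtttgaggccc
pqn-41 (chrIII:1923703-1923803, plus strand): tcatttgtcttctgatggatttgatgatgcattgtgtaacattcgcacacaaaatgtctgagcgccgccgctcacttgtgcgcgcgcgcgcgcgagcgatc
dhc-4 (chrIII:10989627-10989727, plus strand): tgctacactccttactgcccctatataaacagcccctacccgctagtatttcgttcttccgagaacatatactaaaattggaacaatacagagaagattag
larp-1 (chrIII:5014124-5014224, minus strand): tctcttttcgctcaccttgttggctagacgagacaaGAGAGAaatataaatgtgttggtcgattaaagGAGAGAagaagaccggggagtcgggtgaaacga

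The peak in Y43F8C.7 carried a B box core in a summit window that a snoRNA gene, Y43F8C.22, reaches to within 13 bp of the summit. Runs in which purines and pyrimidines alternate stood in the windows of pqn-41 and zfp-1, and the larp-1 window held 2 copies of GAGAGA. The next 3 windows are those of the strongest further members on the same chromosomes with GAGAGA, the short sequence that set summits apart from their flanks most clearly.
pqn-41 (chrIII:1921308-1921408, plus strand): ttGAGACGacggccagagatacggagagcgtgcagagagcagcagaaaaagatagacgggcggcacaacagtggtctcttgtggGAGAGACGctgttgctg
miz-1 (chrIV:10821895-10821995, plus strand): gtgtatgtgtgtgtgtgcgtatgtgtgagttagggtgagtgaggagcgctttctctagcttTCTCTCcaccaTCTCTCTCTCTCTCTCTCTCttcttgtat
Y43F8B.2 (chrV:19522907-19523007, minus strand): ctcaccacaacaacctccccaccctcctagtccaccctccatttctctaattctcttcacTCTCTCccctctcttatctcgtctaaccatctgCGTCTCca

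The last 3 windows belong to the strongest further members on these chromosomes whose summit lay up to 500 bp upstream of an internal transcript start of the host, a choice made after the values were seen.
nurf-1 (chrII:14405264-14405364, plus strand): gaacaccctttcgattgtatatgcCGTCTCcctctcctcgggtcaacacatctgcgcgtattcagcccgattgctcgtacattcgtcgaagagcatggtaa
T24B8.3 (chrII:9060454-9060554, minus strand): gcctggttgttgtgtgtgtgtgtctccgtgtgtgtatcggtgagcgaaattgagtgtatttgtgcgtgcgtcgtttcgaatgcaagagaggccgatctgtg
scc-2 (chrII:255297-255397, minus strand): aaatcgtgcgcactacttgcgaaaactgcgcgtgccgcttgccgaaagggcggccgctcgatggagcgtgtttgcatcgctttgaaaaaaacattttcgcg

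By median signal, intronic peaks were among the weaker peaks of the list. Their median authors' signal, a value per region whose scaling to depth is not known, was 102 (interquartile range 88.9 to 135, range 77.9 to 407), and their median rank was 1116 of 1841. Single-gene promoter peaks had a median signal of 108, divergent promoter peaks 114, intergenic distal peaks 108 and exon peaks 122. Among the 184 strongest peaks of the whole list 22 were intronic (9.78% of the members), and 90 members stood among the 921 strongest. The 1841 IDR peaks were the strongest regions of a pooled relaxed list of 22583 regions, of which they made up 8.15%. That list held 5307 autosomal intronic regions, and the 225 members were 4.24% of these. The weakest members lay in vhp-1 (signal 77.9, rank 1833), ppfr-1 (78.0, rank 1832) and kin-1 (78.1, rank 1825). The strongest intronic regions below the IDR list lay in Y67D8A.2 (77.7, rank 1843), set-18 (77.7, rank 1845) and rgs-4 (77.4, rank 1855), so the edge of the list fell in a continuous range of signal.

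All 225 members had a region over their summit in the relaxed list of each replicate, as did 1833 of all 1841 IDR peaks (99.6%). The order of strength was only partly shared. There were 142 members (63.1%, exact 95% interval 56.4 to 69.4) in the 1841 strongest regions of both replicates, against 69.2% of all IDR peaks. The share was 67.6% in single-gene promoter peaks (Fisher's exact test, adjusted p = 0.694) and 64.8% in intergenic distal peaks (adjusted p = 1). Another 35 members were among the 1841 strongest regions of replicate 1 alone, 41 of replicate 2 alone, and 7 of neither. In replicate 1 the members ranked from 21 to 19496 (median 1071) and in replicate 2 from 9 to 4566 (median 1033). Across the members, which are not independent replicates, the signals of the replicates had a Spearman correlation of 0.41. A q-value under 0.05 in both replicates was reached by 178 members (79.1%), against 84.4% of all IDR peaks. Replicate summits lay a median of 14 bp from the pooled summit, and 348 of 450 (77.3%) within 50 bp.

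**Figure D1:**
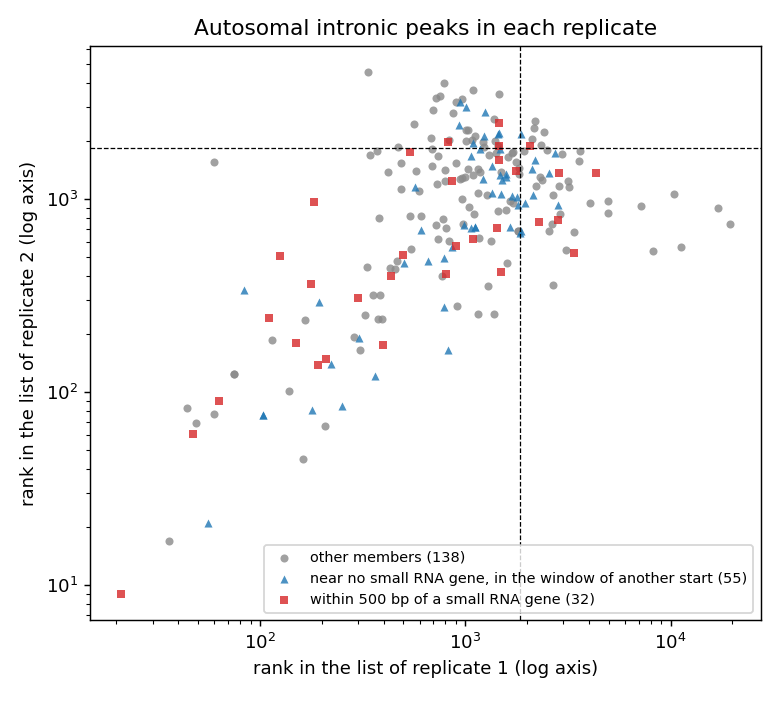
Rank of each of the 225 members in the relaxed list of replicate 1 (x axis) and replicate 2 (y axis), both on log axes. Dashed lines mark rank 1841, and red squares, blue triangles and grey circles mark members within 500 bp of a small RNA gene, others in the window of another transcript start, and the rest. The lower left field holds the 142 members strong in both replicates, and the points spread widely toward the right edge, where replicate 1 ranks reach 19496.

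The 20 strongest members lay in 17 host genes and were all among the 1841 strongest regions of both replicates. The strongest was in intron 3 of Y43F8C.7 on chromosome V at 19643200, with a signal of 407 and pooled rank 8. Replicate 1 placed it at rank 21 and replicate 2 at rank 9. It was followed by a peak in intron 14 of pqn-41, which encodes a glutamine-rich protein, on chromosome III at 1925366 (signal 352, rank 25, replicate ranks 36 and 17). The peak in intron 9 of zfp-1, the homologue of the human leukaemia fusion partner AF10, stood on chromosome III at 8802079 (signal 329, rank 36, replicate ranks 56 and 21). These leading peaks ranked within the first 60 of each replicate.

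The next places of the 20 were held by pxn-1, a peroxidasin gene (signal 301, rank 46), M01F1.8 (289, rank 52), pqn-41 again (286, rank 59), T28F4.1 (280, rank 62), dhc-4, a dynein heavy chain gene (275, rank 71), and larp-1, which encodes a La-related RNA-binding protein (274, rank 73). Then came pbrm-1, the polybromo subunit of a SWI/SNF chromatin remodelling complex (265, rank 83), swah-1 (249.8, rank 93), pqn-41 for the third time (248, rank 94), Y111B2A.12 (245, rank 99) and nurf-1, which encodes the largest subunit of the nucleosome remodelling factor NURF (241, rank 104). The remaining 6 were in T24B8.3 (233, rank 126), swah-1 (226, rank 140), fli-1, a gelsolin-related flightless gene (223, rank 148), cye-1, the cyclin E gene (219.6, rank 155), miz-1 (218, rank 160) and Y43F8B.2 (215, rank 164). Of the 20, 5 lay within 500 bp of a small RNA gene, in Y43F8C.7, pxn-1, dhc-4, fli-1 and cye-1, and none of these 5 hosts had an internal transcript start as defined below. Of the other 15, 14 lay in hosts with one, the exception being M01F1.8.

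Intronic peaks were concentrated in genes that have more than 1 annotated place to start transcription. An internal start was an annotated transcript start more than 500 bp from the outermost start of the gene. Hosts with an internal start held 184 of the 225 peaks (81.8%), although their introns made up 45.6% of the eligible intronic sequence, the autosomal bases at which a summit would have met the rule. That sequence amounted to 22.8 Mb, 27.7% of the autosomes, and carried 9.85 intronic peaks per Mb (exact 95% Poisson interval 8.61 to 11.2). Density was 17.7 per Mb (15.2 to 20.4) in hosts with an internal start and 3.30 per Mb (2.37 to 4.48) in hosts without one. The same order was seen in the 54 X-linked intronic peaks, which are not members, with 16.8 per Mb (11.8 to 23.3) against 7.36 per Mb (4.36 to 11.6). These intervals, like all in the text, cover counting error only.

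The density of peaks was higher in long than in short introns, above all in hosts with an internal start. Over all hosts it was 1.08 peaks per Mb in introns of up to 250 bp, 5.68 per Mb (3.24 to 9.22) from 250 to 500 bp, 4.40 per Mb (2.79 to 6.60) from 500 to 1000 bp, 8.26 per Mb from 1000 to 2000 bp, 16.3 per Mb from 2000 to 5000 bp, 23.5 per Mb from 5000 to 10000 bp and 25.3 per Mb above 10000 bp. In hosts with an internal start it was 5.80 per Mb (3.49 to 9.06) in introns of up to 1000 bp, 15.1 (10.2 to 21.4) from 1000 to 2000 bp, 25.02 (19.05 to 32.3) from 2000 to 5000 bp and 27.3 (21.4 to 34.2) above 5000 bp. In hosts without one the values in the same classes were 3.05, 3.23, 3.20 and 7.57 per Mb, the last from 4 peaks with an interval of 2.06 to 19.4. Introns of 2000 to 5000 bp thus carried 59 peaks in 2.36 Mb of hosts with an internal start and 5 peaks in 1.56 Mb of hosts without. Whether expression of the hosts differs in the same way was not tested.

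**Figure D2:**
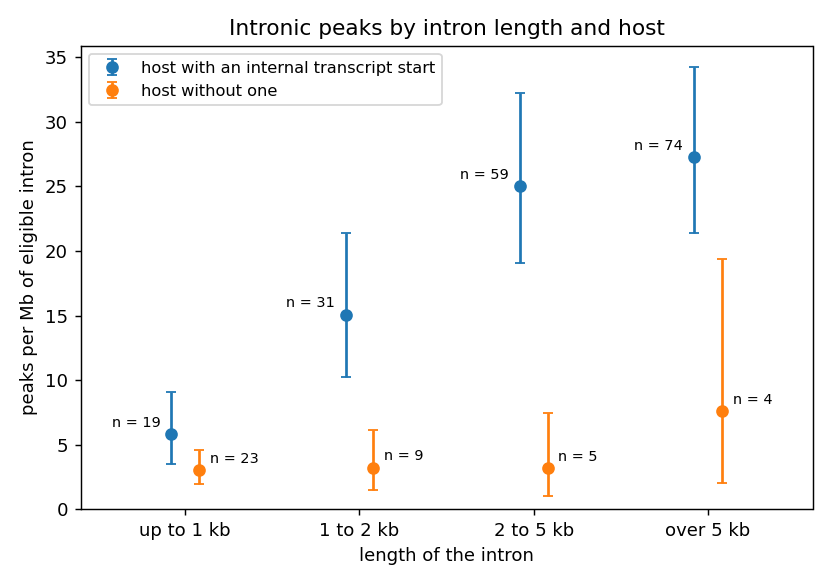
Intronic peaks per Mb of eligible intron (y axis) by length of the intron in the longest transcript of the host (x axis), for hosts with an internal transcript start (blue) and without one (orange). Bars are exact 95% Poisson intervals and n is the number of peaks. The blue points climb from 5.80 to 27.3 per Mb, and the orange points stay between 3.05 and 7.57.

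Within hosts that had an internal start, peaks lay mostly on its upstream side. The summit was upstream of the nearest internal start in 144 of 184 peaks and downstream in 40, at a median distance of 1299.5 bp. The first 250 bp upstream held 26 peaks, 40.3 per Mb of eligible sequence (26.3 to 59.0), and the first 250 bp downstream held 0 (0 to 13.7 per Mb). Within 500 bp it was 39 peaks upstream and 2 downstream. From 1000 to 2000 bp the densities were 32.8 per Mb (23.2 to 45.1) upstream and 9.47 (4.54 to 17.4) downstream. Exons were not eligible on either side, so fewer bases stood downstream (0.270 Mb in the first 250 bp against 0.646 Mb upstream), which the densities take into account.

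**Figure D3:**
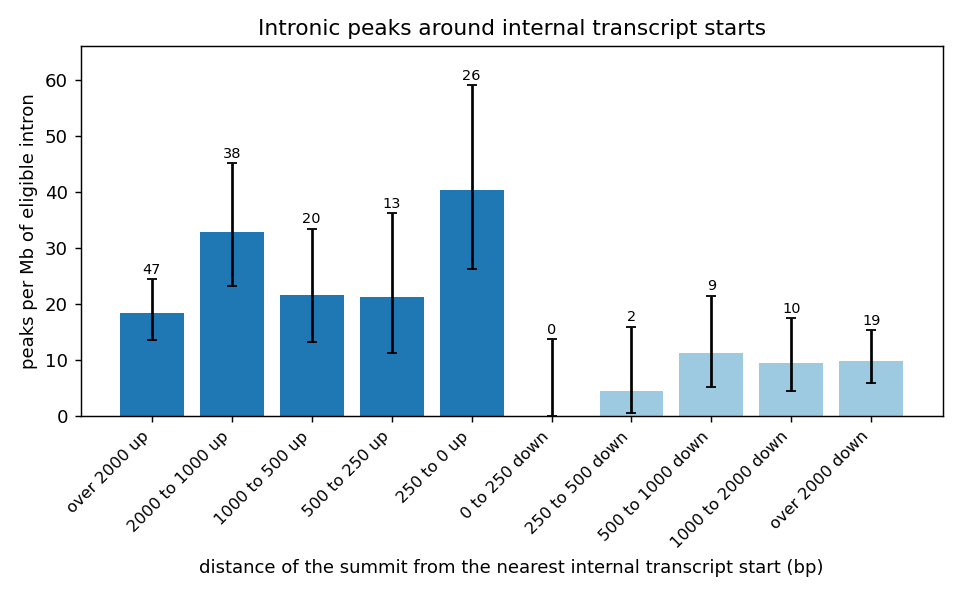
Intronic peaks per Mb of eligible intron (y axis) by distance of the summit from the nearest internal transcript start of its host (x axis, bp), upstream in dark blue and downstream in light blue. Black bars are exact 95% Poisson intervals and the numbers count peaks. The tallest bar is the first 250 bp upstream at 40.3 per Mb, and the bar beside it, the first 250 bp downstream, is at 0.

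The strongest peaks close to an internal start were in nurf-1, 118 bp upstream of it (signal 241, rank 104, replicate ranks 179 and 81), and in T24B8.3, 410 bp upstream (233, rank 126, ranks 251 and 85). Y43F8B.2 had its summit 96 bp upstream (215, rank 164, ranks 84 and 339), T02E1.2 175 bp upstream (208, rank 185, ranks 365 and 121), and scc-2, the cohesin loader gene, 151 bp upstream (196, rank 219, ranks 304 and 192). Further upstream stood zfp-1 at 740 bp and pbrm-1 at 833 bp. In the gene-start window applied to every annotated transcript, 61 members (27.1%) lay in a window of another start, against 13.5% of eligible sequence. All 61 starts belonged to the host itself. These members had a median signal of 99.2, close to 102 in the 164 others. Of the 61, 43 (70.5%) were among the strongest regions of both replicates, against 99 of the 164 (60.4%) and 69.2% of all IDR peaks.

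First introns carried more peaks than their length would give. Intron 1 of the longest transcript held 71 members (31.6%) in 17.4% of eligible sequence, or 17.8 per Mb (13.9 to 22.5). Intron 2 had 10.5 per Mb, intron 3 had 4.38 (2.39 to 7.34), intron 4 had 12.003, and introns from the fifth on had 7.33 (5.69 to 9.29). Over introns of every order, density was 6.09 per Mb (3.72 to 9.40) in the stretch from 500 to 1000 bp inside the host, 7.63 from 1000 to 2000 bp, 10.7 from 2000 to 5000 bp and 12.8 (9.68 to 16.6) from 5000 to 10000 bp. The median distance from the outermost start was 3956 bp, the range 531 to 40135 bp, and 36 members lay over 10 kb inside. The strongest of these were the leading pqn-41 peak at 19408 bp, the zfp-1 peak at 10544 bp and the next pqn-41 peak at 17795 bp. The members nearest to the edge of the gene-start window were in spe-15 at 531 bp, cpz-1 at 547 bp and C09H10.5 at 556 bp. The intron peaks just inside that edge, which the rule counts as promoter peaks, were in F44E2.7 at 476 bp, B0432.10 at 468 bp and T09B4.5 at 465 bp.

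Along the chromosomes, members were denser in the middle than toward the ends. With each autosome divided into 3 equal stretches, the central ones carried 15.02 peaks per Mb of eligible intron (12.1 to 18.4), the left ones 7.87 (6.11 to 9.98) and the right ones 8.11 (6.27 to 10.3). By chromosome the density was 12.5 per Mb on III, 10.2 on I, 9.92 on II, 9.77 on IV and 6.96 (4.79 to 9.78) on V. The intervals of all neighbours in this order overlap. No member lay within 40 kb of cog-1, whose locus the transgene carries, and the nearest was 497179 bp away.

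Small RNA genes stood close to a set of members far out of proportion to the sequence they occupy. A gene for a snoRNA, tRNA, microRNA, snRNA or rRNA lay within 500 bp of 32 members (14.2%, exact 95% interval 9.94 to 19.5). Such positions made up 0.944% of eligible sequence, which gives 148 peaks per Mb (102 to 210) against 8.53 per Mb elsewhere. The nearest gene encoded a snoRNA in 15 cases, a tRNA in 9, a microRNA in 6 and an snRNA in 2, and in 22 cases it was within 100 bp. The summit itself could not lie in such a gene, since exons of any gene were excluded. Of all autosomal IDR peaks, 12.2% lay within 500 bp of such a gene. The share was 40.9% for autosomal exon peaks, 10.8% for single-gene promoter peaks, 9.32% for intergenic distal peaks and 4.40% for divergent promoter peaks, and 18.5% for X-linked intronic peaks.

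The strongest of these were the peaks in Y43F8C.7, 13 bp from the snoRNA gene Y43F8C.22, in pxn-1, 8 bp from the snoRNA gene ZK994.7 (replicate ranks 47 and 61), and in dhc-4, 2 bp from the snRNA gene R07E5.16 (replicate ranks 63 and 90). The fli-1 and cye-1 peaks lay 18 and 2 bp from tRNA genes. Members near small RNA genes had a median signal of 120, against 100 in the 193 others. Of the 32, 23 (71.9%) were among the strongest regions of both replicates, against 119 of the 193 (61.7%) and 69.2% of all IDR peaks. An internal start was annotated in the host of 13 of these 32 members, and in that of 88.6% of the 193 others. Hosts with an internal start held 45.6% of eligible sequence. Together, proximity to a small RNA gene or a host with an internal start covered 203 of the 225 members and left 22. The share of eligible sequence that meets either was not counted, but hosts with an internal start alone held 45.6% of it. Internal starts were chosen after seeing the data, so this coverage is a description.

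At the summits, the short sequence GAGAGA was frequent and the core recognised by NK6-type homeodomains was rare. GAGAGA, counted with its reverse complement TCTCTC, stood within 50 bp of the summit in 88 members (39.1%, exact 95% interval 32.7 to 45.8), against 16 (7.11%) in windows of the same size 400 bp upstream in the direction of the host (exact McNemar test, adjusted p = 6.38e-13 over 16 sequences). It was in 28.9% of all IDR peaks. TTAATT, the NK6-type core, or AATTAA on the other strand, was at 8 summits (3.56%) and in 35 flanks (15.6%), lower at summits (exact adjusted p = 0.000101). All IDR peaks had it in 6.14%. The 54 X-linked intronic peaks had TTAATT at 6 summits (11.1%) and in 5 flanks (9.26%), a pair of counts that was not tested. The homeodomain palindrome TAATTA was at 5 summits and in 14 flanks and did not pass (exact adjusted p = 0.203).

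Another pair of sequences was also rarer at the summits. TTTGAA, the cell cycle homology region bound by DREAM-type complexes, or its reverse complement TTCAAA stood at 20 summits and in 60 flanks (exact McNemar adjusted p = 3.86e-06), and in 13.5% of all IDR peaks. TTTTCAG, the end of the worm splice acceptor, or CTGAAAA stood at 1 summit and in 28 flanks (exact McNemar adjusted p = 8.94e-07), and in 2.01% of all IDR peaks. The rule kept summits out of exons, while flanks could cross the ends of introns, where splice acceptors lie. For TTTTCAG the test therefore cannot tell a trait of the summits from the rule. Base composition moved with these counts. The median G+C content was 47.5% at the summits and 35.6% in the flanks, higher at the summit in 183 members and lower in 39, and eligible introns averaged 32.0%. Soft-masked sequence, which the reference marks as repetitive or of low complexity, took a median of 3.96% of the summit window. It made up 54.9% of all eligible intronic bases. That is a share of bases and not a median over windows, so these values are not directly comparable. The part of base composition in the counts was not tested.

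**Figure D4:**
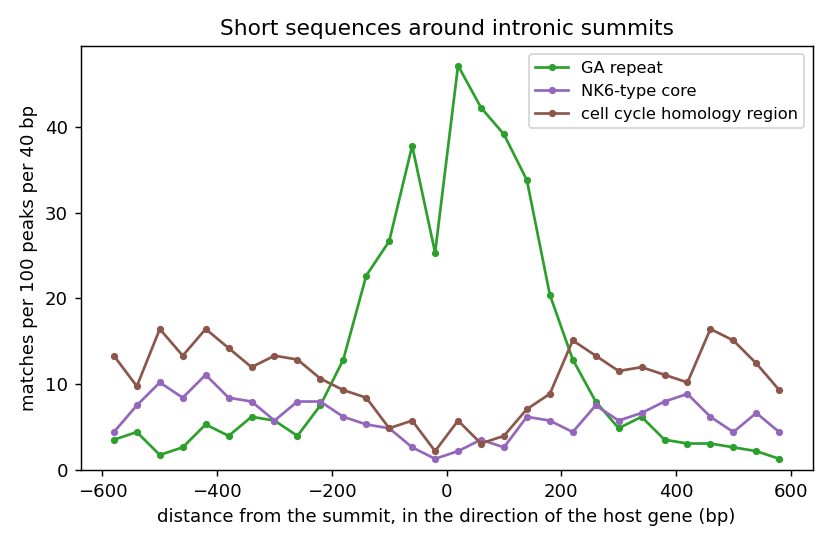
Matches to 3 short sequences on either strand per 100 members (y axis) in bins of 40 bp by distance from the summit in the direction of the host gene (x axis). Overlapping matches count separately, so a long GA run adds several. The GA repeat (green) rises to 47.1 matches per 100 peaks in the first 40 bp downstream of the summit, where the NK6-type core (purple) has 2.22, and the cell cycle homology region (brown) dips there too.

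The remaining 11 sequences with a test against the flanks did not pass at an adjusted p of 0.05, and their shares at the summits stood beside those of all IDR peaks as follows, with matches counted on both strands. The GATA factor core GATAA was in 13.8% of members and 12.1% of all IDR peaks. The NK2-type core CAAGTG was in 6.22% and 8.53%. The GC box GGCGGG was in 4.89% and 5.98%. The E-box CAGCTG was in 3.56% and 3.80%. The E-box CACCTG was in 3.56% and 2.50%, and the E-box CACGTG in 2.67% and 2.72%. The tRNA B box core was in 2.67% and 4.07%. The Hox site with a PBC cofactor, TGATTNAT, was in 2.22% and 1.30%. The forkhead site TGTTTAC was in 0.889% and 1.74%, the T-box site GGTGTGA in 0.889% and 0.760%, and the cyclic AMP response element TGACGTCA in 0.444% and 0.815%. Matches to TTAATT and TAATTA can overlap each other, and GAGAGA can share bases with the words described next. A match is a description of the letters and not a binding site.

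Words of 6 bases were also counted without a prior list, each together with its reverse complement. Those with the largest excess of summits over flanks were GAGAGA, the word CGTCTC (64 members against 5), the word AGAGAG (70 against 13), the word AGAGAC (60 against 9) and the word AGACGC (51 against 1). They overlap each other, as in GAGAGACGC, and were chosen on the members, so their counts there are a description with no test, apart from GAGAGA, which is also on the list of 16 sequences tested above. GAGAGA or CGTCTC was at the summit of 117 members (52.0%), and both were at 35. In the 54 X-linked intronic peaks none of the 5 words passed (exact McNemar test, smallest p = 0.0313 for AGACGC with 6 summits against 0 flanks, adjusted p = 0.156). GAGAGA was at 9 X-linked summits (16.7%) and in 6 flanks (exact McNemar adjusted p = 0.581). An adjusted p above 0.05 over 54 peaks does not show that the words are absent from X-linked peaks.

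The GA sequences were not spread evenly over the members. In introns over 2000 bp GAGAGA was at 68 of 142 summits (47.9%, interval 39.4 to 56.4), and in shorter introns at 20 of 82 (24.4%, 15.6 to 35.1). Near small RNA genes it was at 6 of 32 summits (18.8%, 7.21 to 36.4), and away from them at 82 of 193 (42.5%, 35.4 to 49.8). It was at 77 of 184 summits (41.8%) in hosts with an internal start and 11 of 41 (26.8%) in hosts without, with intervals of 34.6 to 49.3 and 14.2 to 42.9. Within 500 bp upstream of an internal start it was at 14 of 39 (35.9%, 21.2 to 52.8). These differences between subsets were not tested. The share did not follow strength, being 38.9% in the 90 members among the 921 strongest peaks and 39.3% in the 135 others. TTAATT was at 0 of the 90 stronger summits (0 to 4.02%) and at 8 of the 135 weaker ones (5.93%).

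Of the 16 sequences, 2 differed in share between intronic and single-gene promoter peaks, and none passed against intergenic distal peaks. Divergent promoter peaks were not compared. GAGAGA was at 39.1% of intronic and 26.1% of single-gene promoter summits (22.3 to 30.3, Fisher's exact test, adjusted p = 0.0190 over 34 tests), and at 50.4% (43.9 to 57.0) of intergenic distal summits (adjusted p = 0.172). TTTGAA was at 8.89% (5.51 to 13.4) of intronic and 18.4% (15.04 to 22.1) of single-gene promoter summits (exact adjusted p = 0.0190), and at 12.7% of distal ones (adjusted p = 0.694). TTAATT was at 3.56% and 7.76% (exact adjusted p = 0.227). Both differences from promoters were no longer called when the list was limited to the 921 strongest peaks or when the gene-start window ran from 2000 bp upstream to 1000 bp downstream. Against distal peaks 1 sequence passed with a window from 500 bp upstream to 250 bp downstream, and 1 when exons of protein-coding genes alone removed summits. As peaks are no replicates, the p-values describe counting and not variation between animals.

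Below the members, the same features can be followed down the pooled relaxed list, whose lower ranks include background. Hosts with an internal start held 78.9% of the autosomal intronic regions at ranks 1 to 921, 83.7% at ranks 922 to 1841, 69.2% at ranks 1842 to 3682 and 50.1% at ranks 14729 to 22583, the last near their 45.6% share of sequence. GAGAGA was at 38.9%, 39.3%, 27.2% and 4.59% of the summits in these bins, and a small RNA gene within 500 bp of 21.1%, 9.63%, 5.90% and 0.788%. TTAATT went the other way, from 0% and 5.93% to 13.1% and 19.2%. The share of autosomal regions that were intronic was 13.0% in the first bin and 34.2% in the last, and the median G+C content at the summit fell from 49.5% to 31.7%.

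**Figure D5:**
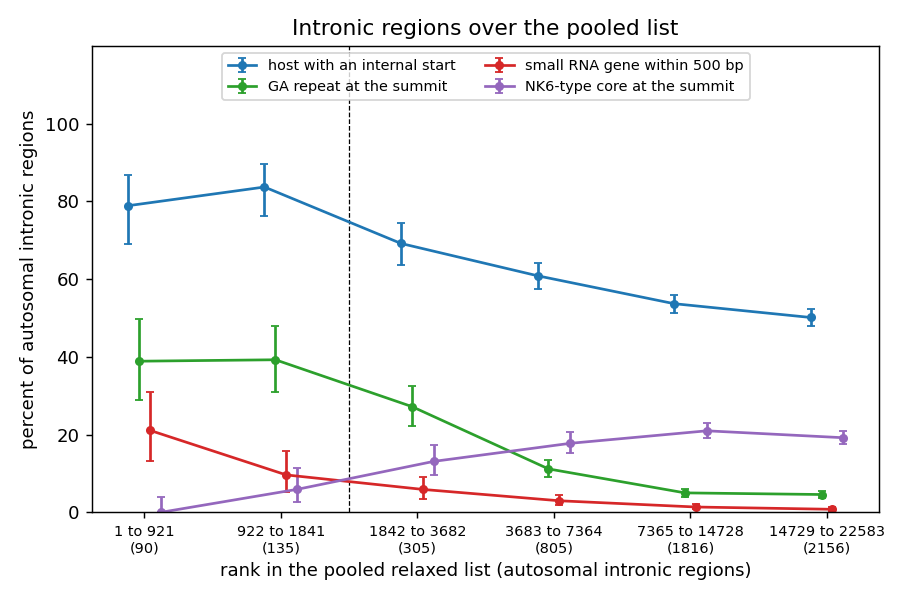
Percent of autosomal intronic regions (y axis) with each of 4 features by rank in the pooled relaxed list (x axis, number of regions in brackets), with exact 95% binomial intervals. The 225 members stand left of the dashed line. Hosts with an internal start (blue), GAGAGA (green) and small RNA genes (red) become less frequent from the members to the last bin, and the NK6-type core TTAATT (purple) becomes more frequent.

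The 225 peaks lay in 176 host genes, 1.28% of the 13767 autosomal protein-coding genes with eligible intron. There were 144 hosts with 1 peak, 22 with 2 and 10 with 3 or more, and 81 members shared their host with another member. Hosts were long, with a median of 10246.5 bp against 2386 bp for all such genes, a median of 8 introns against 5, and 3 annotated transcripts against 1. An internal start was annotated in 137 hosts (77.8%) and in 18.1% of all such genes. These medians and shares are per gene, and a gene with more eligible intron has more room for a peak. By sequence, genes with an internal start held 45.6% of eligible intron. An IDR peak in the gene-start window of the host itself was also held by 22 hosts (12.5%), against 6.09% of all genes with eligible intron. Only the member in vab-10, a spectraplakin gene, lay in no intron of the longest transcript of its host, and 1 member lay in more than 1 gene body.

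Among the hosts with several peaks, swah-1 on chromosome I had 7, in introns 1, 4 and 7. Their signals ran from 111 to 249.8 and their pooled ranks from 93 to 908. A pair of its summits, at 9553295 and 9553501, lay in the same region of each replicate (ranks 75 and 125), so they are not separate in the replicates. pqn-41 had 4 peaks, all in its intron 14 of 10372 bp, with signals of 352, 286, 248 and 80.5 and pooled ranks of 25, 59, 94 and 1731. The strongest 3 were among the first 207 of replicate 1 and the first 83 of replicate 2.

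lsy-22, which encodes a short Groucho-like protein that works with the co-repressor UNC-37 in the ASE fate choice, had 4 peaks in its first intron of 11392 bp. Their signals were 154, 123, 100.8 and 96.2 and their pooled ranks 427, 725, 1134 and 1230. The strongest ranked 1380 in replicate 1 and 255 in replicate 2, and the others ranked from 691 to 902 in replicate 1 and from 713 to 1550 in replicate 2, all within the first 1841 of both. GAGAGA was at the summits of ranks 427 and 725, and the homeodomain sequences TAATTA and TTAATT at that of rank 1134. All 4 lay upstream of the internal start of lsy-22, by 4781 to 8814 bp. Another gene of the ASE pathway, die-1, a zinc finger gene picked for its role, had a member in its first intron (signal 102, rank 1096, replicate ranks 865 and 1251), 1145 bp upstream of an internal start and 205 bp from the snoRNA gene C18D1.21. Genes of this pathway were not counted as a list. The hosts named here therefore give no share to set beside the 1.28% of all genes with eligible intron.

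mbk-2, a DYRK kinase gene of the oocyte-to-embryo transition, also had 4 peaks, 1 in intron 4 and 3 in intron 6, with signals from 80.3 to 107. The hosts with 3 peaks were zfp-1 (signals 329, 169 and 88.9), Y111B2A.12 (245, 92.1 and 89.2), fkh-7, a forkhead gene (193, 107 and 94.5), Y67D8A.2 (151, 105 and 91.9), lit-1, the Nemo-like kinase of the Wnt pathway (131, 88.3 and 79.8), and egl-27, which encodes an MTA-type chromatin factor (110, 85.7 and 84.3). The weaker peaks of lit-1 stood at ranks 4036 and 10342 of replicate 1 but at ranks 955 and 1066 of replicate 2, so replicate 2 alone placed them high.

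Hosts were counted in gene lists by role beside the 1.28% of all genes with eligible intron. The list of transcription factor families other than homeobox and nuclear receptors had 11 hosts of 151 (7.28%, interval 3.69 to 12.7) with 15 peaks, or 32.2 per Mb of their eligible intron (18.0 to 53.0) against 9.85 overall. Its strongest were fkh-7 (rank 230), pop-1, the TCF factor of Wnt signalling (signal 184, rank 268), zip-2, a bZIP gene (183, rank 271), and lag-1, the CSL factor of Notch signalling (154, rank 429). The chromatin list had 4 hosts of 112 (3.57%, interval 0.982 to 8.89, which covers 1.28%) with 8 peaks, or 30.4 per Mb (13.1 to 59.8). The hosts were zfp-1, pbrm-1, nurf-1 and lin-9, a DREAM complex gene (87.2, rank 1487). The 2 pbrm-1 peaks lay in the same region of each replicate (ranks 103 and 76), so they are not separate in the replicates. Homeobox genes had 2 hosts of 69, irx-1, an Iroquois gene (102, rank 1102, replicate ranks 337 and 4566), and ttx-1, an Otx-type gene (93.9, rank 1286). Nuclear hormone receptors had 3 of 242 (1.24%), nhr-19 (138, rank 567), nhr-46 (94.5, rank 1272) and nhr-34 (86.3, rank 1525).

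In signalling, Wnt and planar polarity genes had 3 hosts of 28 (10.7%, 2.27 to 28.2), pop-1, lit-1 and cam-1, the ROR receptor (120, rank 763). The list of Notch, TGF-beta, EGF, FGF and insulin signalling had 2 of 51, mpk-1, the ERK kinase gene (117, rank 812), and daf-14, a Smad gene (98.2, rank 1191). Protein kinases had 6 of 81 (7.41%) with 10 peaks, led by mbk-2, par-1, the polarity kinase (102, rank 1110), let-363, the TOR kinase (91.6, rank 1347), and mnk-1 (86.1, rank 1536). The replicates differed widely in let-363, which ranked 7213 and 919, and in mnk-1, which ranked 17043 and 905. RNA binding and splicing genes had 2 of 83, larp-1 and lin-28, the heterochronic regulator (99.2, rank 1170).

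Of the lists for differentiated cells, axon guidance and adhesion genes had 5 hosts of 66 (7.58%), led by the cadherin gene hmr-1 (120, rank 762), unc-33 (119, rank 787), the netrin receptor gene unc-5 (106, rank 1002) and the ephrin gene vab-2 (99.1, rank 1172). Synapse and vesicle release genes had 5 of 56 (8.93%), led by unc-41, a stonin gene (186, rank 258), unc-104, the kinesin of synaptic vesicle transport (100, rank 1150), dys-1, the dystrophin gene (97.2, rank 1204), and ric-7 (89.7, rank 1397). The unc-41 summit was 47 bp from the snoRNA gene C27H6.5. Muscle genes had 4 of 45 (8.89%), the tropomyosin gene lev-11 (126, rank 683), vab-10 (96.3, rank 1225), the tropomodulin gene unc-94 (86.6, rank 1513) and the kindlin gene unc-112 (79.3, rank 1780). By eligible intron, axon guidance and adhesion genes had 12.2 peaks per Mb (4.46 to 26.5), synapse genes 15.7 (5.10 to 36.7) and muscle genes 17.4 (4.74 to 44.6). Each interval covers the 9.85 per Mb of all genes.

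No member lay in the 214 ion channel and gap junction genes (0 to 1.71%), the 81 G protein-coupled receptor genes (0 to 4.45%), the 20 ribosomal protein genes with eligible intron (0 to 16.8%) or the 1213 chemoreceptor genes (0 to 0.304%). Ion channel genes have 0.740 Mb of eligible intron, and 0 peaks allow up to 4.99 per Mb there. Collagen and cuticle genes had 1 host of 106, col-99 (80.7, rank 1726), 160 bp from a tRNA gene. The length of introns and the annotation of internal starts differ between lists, and their part in these counts was not tested.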

How the data were processed

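Per the deposited file listing, the authors made relaxed region lists in ce11 (replicates apart and pooled) from alignments with a control alignment, and from these an IDR list labelled optimal. Not given in the sources used here are the aligner, the caller, any versions and the IDR threshold. Each deposited list gives a signal per region, used only to rank and describe regions within a list, and a q-value on the −log10 scale. Depth is not known. The lists in ce10 were not used here, since no ce10 genome was at hand.

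Positions are counted from 1 and were set against WBcel235 with the Ensembl release 115 annotation. A base had as host the smallest protein-coding gene over it, and intron order and length are those of its longest transcript. A replicate rank is that of the replicate region over the pooled summit, so neighbouring summits can share one. Both strands were searched for each sequence within 50 bp of the summit and of a point 400 bp upstream. Exact McNemar and two-sided Fisher's exact tests were adjusted with Benjamini-Hochberg over 16 sequences, 34 class comparisons or 5 words. Calculations used Python 3.11.15, numpy 2.4.6, pandas 2.3.3, scipy 1.17.1 and matplotlib 3.10.9, and the tests were checked on simulated data. Words of 36 bases that recur in the genome touched 11 summit windows (4.89%), and 0 windows consisted of them alone.

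The members and lists were chosen with earlier results of these data known, so list counts have no test. The result of 1 list is not reported here. The genes named are the hosts of the 20 strongest members, hosts with 3 or more peaks, up to 4 hosts per list, the 3 strongest near a small RNA gene, near another start and over 10 kb inside, 3 members on each side of the window edge, and members within 40 kb of cog-1. Sequences shown are the 8 strongest outside chromosome I and the 4 strongest there with the sequence of smallest p, of which larp-1 is in both. Internal starts, the subsets of members, the bins of pooled rank and the last 3 printed sequences were chosen after seeing the data, as were the genes at the signal edge and near internal starts. The gene die-1 was picked for its role in the ASE pathway, outside these rules.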

Additional observations from a re-analysis of the deposited data

How the results depend on the processing

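Of 127 values of 14 results under 16 alternatives, 104 kept within 1.5 times for counts, within the counting interval for shares and densities, or on the same side of the threshold, and 23 did not. All 22 values without a replicate kept within these limits, with 221 to 231 intronic peaks, 173 to 176 hosts, 81.0 to 81.8% of peaks in hosts with an internal start and 36.8 to 37.6% with GAGAGA. For these values the 1841 strongest regions of the other replicate's relaxed list took the place of the IDR list. IDR was not run again, and the size of the list was fixed. Replicate support and class comparisons have no value without a replicate. No paired analysis was possible because there is only 1 group.

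Among the 921 strongest peaks, 90 were intronic (13.0%), in 76 hosts, at 3.94 per Mb, 21.1% of them near a small RNA gene, and 0 sequences differed from single-gene promoter peaks. A shorter list by itself lowers the counts of peaks and hosts and the density. A window of 2000 bp upstream to 1000 bp downstream gave 13.3% intronic, 17.0% of them within 2 kb of the start, and 0 sequences that differed from promoters. A window of 500 bp to 250 bp gave 1 sequence that differed from distal peaks. Windows at every transcript start gave 11.6% intronic, 8.30 per Mb, 75.0% in hosts with an internal start and, by construction, 0 near another start. With exons of protein-coding genes alone removing summits, 20.2% were intronic, at 12.3 per Mb, 23.4% near a small RNA gene and 74.1% in hosts with an internal start, 2 sequences were more frequent at summits and 1 differed from distal peaks. Without peaks near small RNA genes the density was 8.45 per Mb. The eligible sequence was left unchanged there, so this fall follows from the removal. Of the peaks kept, 88.6% lay in hosts with an internal start and, by construction, 0 near such a gene. Internal starts over 1000 bp from the outermost start, an alternative chosen after seeing the data, gave 79.6%.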
